A study of Mus musculus with 14 samples.

Results

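Endothelial and capillary genes were followed through triceps muscle of 14 male mice. The set was fixed by name: 32 genes of the 52550 gene rows in the count table, namely 11 receptors and their partners, 7 junction and surface adhesion genes, 7 transcription factors and 7 genes of capillary function, vesicles and matrix. The rule names the genes and uses no threshold on a measured value. The mice were WT (n = 3 controls, n = 4 runners) or FLExDUX4 (n = 3 controls, n = 4 runners), with the WT mice being littermates of the FLExDUX4 mice. FLExDUX4 mice carry a human DUX4 transgene and are used as a model of facioscapulohumeral muscular dystrophy; as background, the line was built so that Cre recombination switches the transgene on, and without Cre it is known for low, leaky DUX4 expression. No Cre driver and no age are named for these mice, and DUX4 itself was not analysed here. Runners had a wheel for 6 weeks and ran voluntarily, and controls were labelled as not running. Going by its title, the series asked whether aerobic exercise improves the deficits of this model.

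Capillaries are tubes of endothelial cells that lie along muscle fibres and deliver oxygen and fuel to them. Vascular endothelial growth factor acts on these cells through the receptor encoded by Kdr, angiopoietins act through Tek and its partner Tie1, and factors of the ETS and SOX families hold the endothelial programme on. Endurance exercise is known to bring capillary growth in skeletal muscle.

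Libraries read the 3′ end of each transcript. They held 3269357 to 6995811 gene counts per mouse, and values are given as CPM (read counts scaled to library size). Of the 32 genes, 31 had enough counts for a test; the exception was Cldn5. Their summed counts ranged from 108 for Erg to 4427 for Cav1 over all 14 mice, and Erg was at 0 in 3 mice, Sox17 and Sox18 in 1 each. Precision was lowest for such sparse genes, and the replicates are separate mice. FLExDUX4 control 1 and WT running 2 stood apart from their groups in earlier results of these data, so results that change without them are given both ways. The 8 fast fibre genes listed to check the tissue label summed to between 62497 and 109693 CPM in the 14 mice. Mitochondrial transcripts took 20.5% to 29.2% of gene counts in controls and 26.6% to 39.8% in runners.

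Promoters of these genes are shown because ETS factors are named in the set (Erg, Fli1, Ets1). The table from RefSeq on GRCm38.p6, which holds 250 bases before to 50 bases after a gene's start, had 13 of the 32 genes. The 4 printed are those of Kdr (chr5:75978406-75978705, minus strand), Cav1 (chr6:17306085-17306384, plus strand), which are the genes called below, and of Eng (chr2:32646345-32646644, plus strand) and Tie1 (chr4:118489800-118490099, minus strand), receptors with 2 matches each. Letters run 5′ to 3′ on the gene's strand, and capitals mark AGGAAG, a sequence that holds the ETS core GGAA, or its reverse complement.
Kdr: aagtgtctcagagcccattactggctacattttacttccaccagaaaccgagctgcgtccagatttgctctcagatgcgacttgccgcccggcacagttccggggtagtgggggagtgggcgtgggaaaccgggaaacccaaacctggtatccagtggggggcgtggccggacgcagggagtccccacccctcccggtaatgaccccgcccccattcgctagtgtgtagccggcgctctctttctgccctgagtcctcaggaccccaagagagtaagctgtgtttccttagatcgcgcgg
Cav1: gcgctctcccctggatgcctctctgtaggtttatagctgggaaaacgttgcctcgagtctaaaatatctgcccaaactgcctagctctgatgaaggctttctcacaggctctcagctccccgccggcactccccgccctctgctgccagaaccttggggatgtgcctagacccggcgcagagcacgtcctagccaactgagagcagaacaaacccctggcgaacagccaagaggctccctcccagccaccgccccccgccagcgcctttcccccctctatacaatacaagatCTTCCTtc
Eng: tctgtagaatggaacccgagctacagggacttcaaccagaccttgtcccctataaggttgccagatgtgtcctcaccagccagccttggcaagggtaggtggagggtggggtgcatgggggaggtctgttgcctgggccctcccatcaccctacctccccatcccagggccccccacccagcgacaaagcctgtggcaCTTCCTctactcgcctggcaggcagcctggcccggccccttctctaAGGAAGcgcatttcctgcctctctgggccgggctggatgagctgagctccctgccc
Tie1: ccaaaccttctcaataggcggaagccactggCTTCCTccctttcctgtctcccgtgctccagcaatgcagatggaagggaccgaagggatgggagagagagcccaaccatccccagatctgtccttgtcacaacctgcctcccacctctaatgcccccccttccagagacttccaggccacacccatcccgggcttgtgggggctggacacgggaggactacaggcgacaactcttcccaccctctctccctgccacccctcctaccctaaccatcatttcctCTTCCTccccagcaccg

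The printed Kdr window held 0 matches, the printed Cav1 window 1 (another Cav1 start in the table, chr6:17307390-17307689, had 0), and the Eng and Tie1 windows 2 each. The window of Flt1, a receptor not printed, also held 2, so Eng and Tie1 are examples of windows with matches. Searched on both strands, AGGAAG occurred in 9 of the 13 genes (69.2%) and in 38.4% of all 27025 genes of the table. A gene counted if any of its windows matched. By window, AGGAAG occurred in 10 of 18 (55.6%) against 35.4% of all 32851 windows. ACAGGAA, another ETS sequence with the flank found in FOX:ETS elements, shares the letters AGGAA with AGGAAG and was searched separately. It is not in capitals. ACAGGAA occurred in 4 of 13 (30.8%) against 9.73% of all genes, and where a stretch holds both sequences it counts in both. ACAAAG, a SOX core, occurred in 3 of 13 (23.1%) against 21.02%. By window, the shares were 27.8% against 8.67% for ACAGGAA and 16.7% against 18.7% for ACAAAG. A match is only these letters, and a window without them says nothing of a factor's binding. The core GGAA alone, or TTCC, was not counted, and it does occur in the printed Kdr window.

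Running in WT mice gave the highest median difference of the 7 comparisons. Of the 31 tested, 28 were higher in runners than in controls, and the median log2 fold change was 0.68 (range -0.70 to 1.69) against 0.01 over all 11088 tested genes, 51.3% of which lay above 0. Only Kdr passed the test, 1 of 31 against 0.397% of all genes called higher. DESeq2 called 5 (Kdr, Cav1, Gpihbp1, Pecam1 and Ptprb), and it called 194 of all tested genes in either direction where edgeR called 55. At an unadjusted p under 0.05, 14 were higher against 6.3% of all genes, and in 11 every runner was above every control against 5.74% of all genes. The genes were chosen with earlier results of these data known. In bulk muscle, a larger share of endothelial cells and more RNA of these genes per cell cannot be told apart. When spike-ins set the library sizes, the median of all genes moved from 0.01 to 0.37 and that of these genes to 1.04. Such a change shifts all genes almost alike. The distance of these genes from all genes, 0.66 under both scalings, is thus no check of the scaling. With spike-in sizes 11 of these genes were called, as were 604 of all tested genes in either direction.

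**Figure D1:**
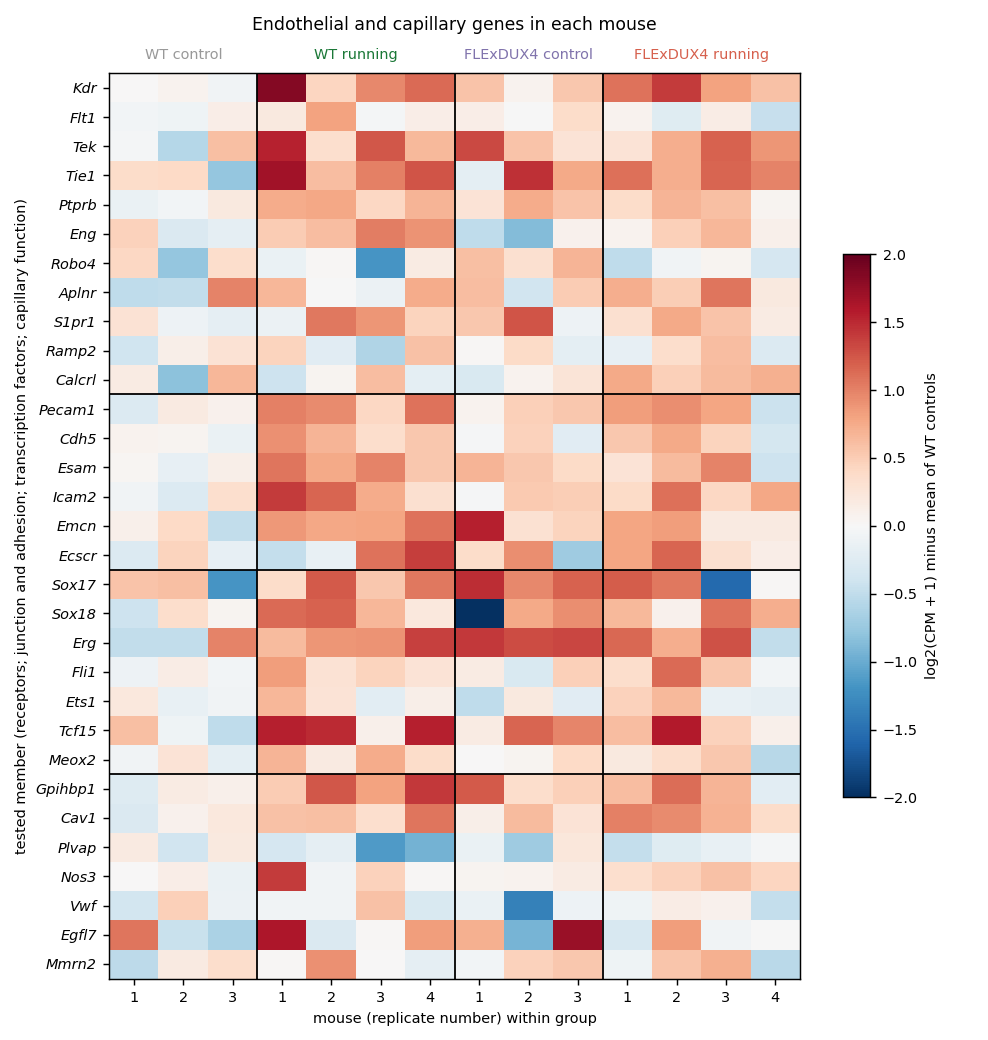
Each row is a tested gene (31 in all), each column a mouse, and the colour is log2(CPM + 1) minus the mean of the WT controls, with the scale ending at -2 and 2. The Kdr row is darkest in WT runner 1 (91.2 CPM), the column of FLExDUX4 runner 4 is the palest of the runners, and the darkest blue cell is Sox18 in FLExDUX4 control 1, which had 0 counts.

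Among receptors, the median in WT was 0.66, with 9 of 11 above 0 and 4 without overlap. Kdr (ENSMUSG00000062960, chr5:75932827-75978458, minus strand, GRCm38, GENCODE M21) encodes the main receptor for vascular endothelial growth factor. It was at 24.8, 26.1 and 23.5 CPM in the WT controls, 91.2, 33.7, 49.3 and 55.4 in the WT runners, 37.3, 26.2 and 36.4 in the FLExDUX4 controls and 53.8, 67.0, 44.0 and 37.9 in the FLExDUX4 runners. The WT groups did not overlap and runner 1 was highest. Kdr rose by 1.21 ± 0.26 (log2, SE of the fit; edgeR adjusted p = 0.0411). This call was the only one among the 31, and it was kept in 5 of the 14 fits that left out a mouse, with fold changes of 0.89 to 1.39. It was lost without any one WT control, WT running 1 or 4, FLExDUX4 control 1 or 3, or FLExDUX4 running 1 or 3; the adjusted p reached 0.199 over the alternatives, and DESeq2 kept it.

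Eng, a co-receptor of the TGF-β family on endothelium, was at 9.04, 4.97 and 5.42 CPM in the WT controls, 9.30, 10.1, 13.8 and 12.6 in the WT runners, 4.12, 2.99 and 6.69 in the FLExDUX4 controls, and 6.61, 9.15, 10.5 and 6.84 in the FLExDUX4 runners. The WT groups did not overlap. The difference in WT was 0.81 ± 0.36 (adjusted p = 0.401). Ptprb, the endothelial tyrosine phosphatase that acts on Tek, was at 26.5, 28.1 and 33.7 CPM in WT controls, 49.5, 50.8, 39.2 and 47.4 in WT runners, 35.7, 49.4 and 44.0 in FLExDUX4 controls and 37.9, 47.6, 44.9 and 30.4 in FLExDUX4 runners. The WT groups were apart here too, and the FLExDUX4 groups overlapped. Ptprb differed by 0.67 ± 0.19 in WT (adjusted p = 0.0912).

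The rest of the receptors did not pass the test. Tie1 differed by 1.39 ± 0.57 and Tek, the angiopoietin receptor, by 1.15 ± 0.47 (adjusted p = 0.336 and 0.346). S1pr1, a sphingosine phosphate receptor, differed by 0.66 ± 0.31, and Flt1, another receptor for that growth factor, by 0.32 ± 0.19 (adjusted p = 0.443 and 0.586). Without WT running 2, Flt1 was at 0.10. Robo4, an endothelial guidance receptor, was at -0.35 ± 0.51, and at 0.03 when spike-ins set the library sizes. The remaining receptors and partners differed little in mean CPM between WT controls and WT runners. Ramp2 was at 9.68 and 10.5, Calcrl at 8.80 and 8.44, and Aplnr at 1.97 and 2.39.

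Junction and adhesion genes gave the highest group median in WT, 0.91, with 6 of 6 above 0 and 4 without overlap. Pecam1, an adhesion molecule between endothelial cells, was at 20.2, 27.9 and 26.2 CPM in WT controls, 50.3, 47.9, 33.1 and 53.4 in WT runners, 25.8, 34.4 and 36.1 in FLExDUX4 controls and 44.3, 47.6, 43.1 and 17.96 in FLExDUX4 runners. It did not overlap in WT, and FLExDUX4 runner 4 was lower than every other mouse. The difference in WT was 0.90 ± 0.25 (adjusted p = 0.0947). Cdh5, the cadherin of endothelial junctions, was at 22.5, 22.3 and 19.3 CPM in WT controls, 41.2, 34.6, 27.4 and 31.5 in WT runners, 20.9, 29.7 and 18.01 in FLExDUX4 controls and 31.5, 36.9, 29.2 and 16.5 in FLExDUX4 runners. Again the WT groups were apart and FLExDUX4 runner 4 was the lowest of all mice. Cdh5 differed by 0.65 ± 0.24 in WT (adjusted p = 0.24).

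Icam2, an adhesion molecule for leukocytes, was at 3.16, 2.59 and 4.51 CPM in WT controls, 10.5, 8.70, 6.29 and 4.42 in WT runners, 3.29, 5.24 and 5.15 in FLExDUX4 controls and 4.67, 8.34, 4.82 and 6.41 in FLExDUX4 runners. WT runner 4 lay within the controls. The difference in WT was 1.14 ± 0.44 (adjusted p = 0.296). Esam, another junction molecule, differed by 0.90 ± 0.28, and Emcn, a mucin-like surface protein of capillaries and veins, by 0.94 ± 0.39 (adjusted p = 0.13 and 0.356), and neither overlapped between the WT groups.

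Cldn5, the claudin of tight junctions, was too sparse for a test. It had raw counts of 2, 0 and 0 in the WT controls, 15, 6, 8 and 47 in the WT runners, 2, 5 and 6 in the FLExDUX4 controls, and 9, 6, 7 and 11 in the FLExDUX4 runners. Of the 76 counts in WT runners, 47 came from runner 4, and every WT runner had more than any WT control.

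All 7 transcription factors were above 0 in WT, with a median of 0.79, while 1 of them had no overlap. Fli1, an ETS factor, was at 11.99, 14.5 and 12.3 CPM in WT controls, 23.7, 15.98, 17.9 and 15.8 in WT runners, 14.5, 10.2 and 18.3 in FLExDUX4 controls and 16.7, 29.6, 19.3 and 12.4 in FLExDUX4 runners. The WT groups were apart. The difference in WT was 0.50 ± 0.28 (adjusted p = 0.56). Tcf15, a factor of capillary endothelium that works with Meox2 in lipid uptake, was at 4.42, 2.38 and 1.50 CPM in WT controls, 9.50, 9.06, 2.84 and 9.56 in WT runners, 3.02, 6.98 and 6.05 in FLExDUX4 controls and 4.47, 9.69, 3.91 and 2.85 in FLExDUX4 runners. WT runner 3 lay at the level of the controls. Tcf15 differed by 1.45 ± 0.51 in WT (adjusted p = 0.222).

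Sox18, a SOX factor of developing vessels, was at 2.73, 5.401 and 4.21 CPM in WT controls, 9.89, 10.3, 6.90 and 4.78 in WT runners, 0, 7.48 and 8.49 in FLExDUX4 controls and 6.803, 4.31, 9.63 and 7.27 in FLExDUX4 runners. It overlapped between the WT groups, differing by 0.95 ± 0.61 (adjusted p = 0.654). FLExDUX4 control 1 had no count. Meox2 (0.54 ± 0.34), Ets1 (0.28 ± 0.42) and Erg (1.69 ± 1.13) did not pass either; Erg had 6 counts in the WT controls, so its fold change is imprecise.

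Capillary function genes had a median of 0.55 in WT, with 6 of 7 above 0 and 2 without overlap. Cav1 (ENSMUSG00000007655, chr6:17306335-17341452, plus strand, GRCm38) encodes the coat protein of caveolae, the small membrane pits that fill capillary endothelium. It was at 36.6, 47.3 and 51.8 CPM in WT controls, 67.7, 68.4, 56.8 and 95.4 in WT runners, 48.6, 70.1 and 54.0 in FLExDUX4 controls and 90.6, 87.2, 72.9 and 57.9 in FLExDUX4 runners. The WT groups were apart, the FLExDUX4 groups were not. Its difference was 0.68 ± 0.19 in WT (adjusted p = 0.0889) and 0.42 ± 0.19 in FLExDUX4 (adjusted p = 0.71). Gpihbp1, which anchors lipoprotein lipase on capillaries, was at 8.62, 11.9 and 11.4 CPM in WT controls, 15.4, 26.5, 19.1 and 29.9 in WT runners, 26.1, 13.7 and 15.1 in FLExDUX4 controls and 16.7, 23.95, 17.5 and 8.98 in FLExDUX4 runners. The WT groups did not overlap. The difference in WT was 1.10 ± 0.31 (adjusted p = 0.0872).

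Plvap, the diaphragm protein of fenestrae and caveolae, went the other way in WT. It was at 10.1, 6.48 and 10.2 CPM in WT controls, 6.73, 7.64, 3.45 and 4.07 in WT runners, 7.96, 4.99 and 10.4 in FLExDUX4 controls and 6.03, 7.27, 7.83 and 8.55 in FLExDUX4 runners. The groups overlapped, and the difference in WT was -0.70 ± 0.37 (adjusted p = 0.534). Nos3, the endothelial nitric oxide synthase, differed by 0.77 ± 0.61 in WT, where runner 1 was highest at 7.12 CPM, and by 0.21 without that mouse. Mean CPM in WT controls and WT runners was 8.19 and 8.39 for Vwf, 9.44 and 14.1 for Egfl7, and 12.7 and 14.9 for Mmrn2.

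**Figure D2:**
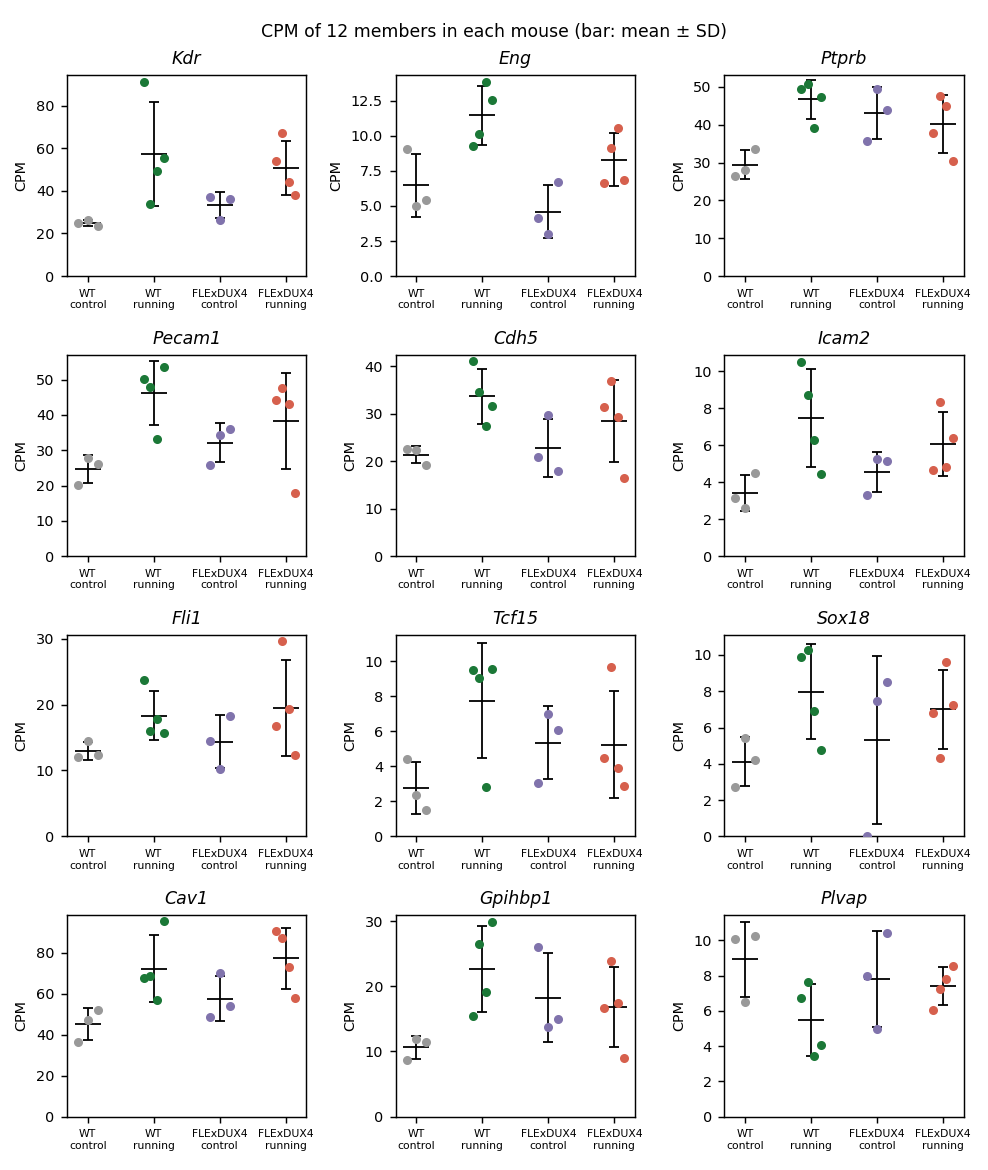
CPM of 12 genes by group, with 1 point per mouse and the bar at mean ± SD (n = 3 or 4). Kdr and Cav1 show the WT runners above all WT controls, and the FLExDUX4 runners of Pecam1 and Cdh5 hold 1 mouse at the bottom, at 17.96 and 16.5 CPM.

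In FLExDUX4 mice, no gene of the set passed the test after running. Of the 31, 17 were above 0 (51.1% of all genes), and the median was 0.09 (range -0.92 to 0.79) against 0.01 over all genes. Of these 31, 0 were called, as were 0% of all genes, and DESeq2 also called 0. At an unadjusted p under 0.05, 3 were higher (3.61% of all genes): Kdr by 0.60 ± 0.25, Eng by 0.79 ± 0.37 and Cav1 (adjusted p = 0.71 for Kdr, 0.722 for Eng). The groups did not overlap for Kdr, Calcrl and Nos3 upward (3.72% of all genes), nor for Robo4 and Erg downward (3.45%). Within each genotype, Kdr was thus higher in every runner than in every control, while Robo4 was at -0.92 ± 0.50 and Erg at -0.86 ± 0.97. Calcrl, the adrenomedullin receptor that pairs with Ramp2, differed by 0.66 ± 0.35.

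FLExDUX4 runner 4 was the lowest of its group in 20 of the 31 genes, more than any other runner. Without it, 22 of 31 were above 0, 6 had an unadjusted p under 0.05 and the median was 0.23; without FLExDUX4 running 3 the median was 0.03. The 3 genes under 0.05 fell to 0 without FLExDUX4 running 2, and to 1 without FLExDUX4 control 1 or FLExDUX4 running 1. FLExDUX4 runner 4 also had a slow fibre sum of 68.7 CPM, where runners 1 to 3 had 774, 1134 and 388, and red blood cell genes at 478 CPM against 1366, 1743 and 1346; the part of these values in the result was not tested.

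**Figure D3:**
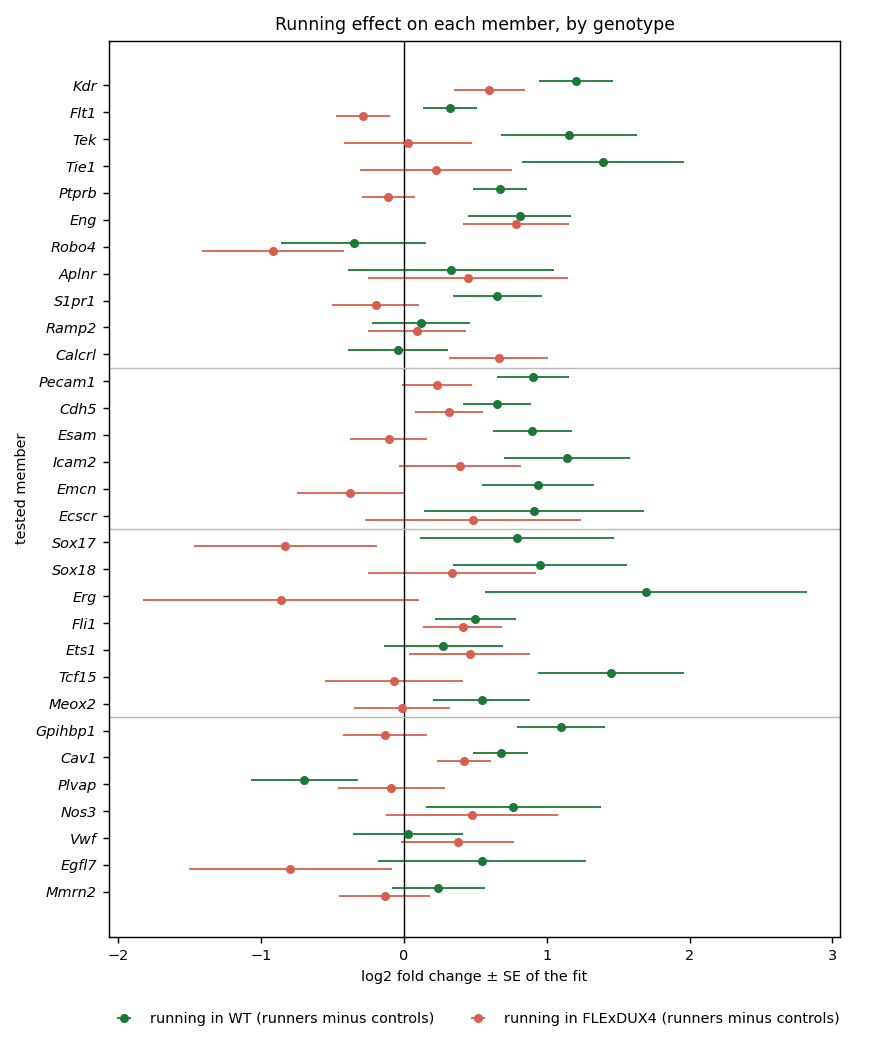
Log2 fold change ± SE of each gene for runners minus controls, WT in green and FLExDUX4 in red, grouped by role. The WT points lie mostly right of 0 (28 of 31), and the FLExDUX4 points lie on either side of it (17 of 31).

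Averaged over genotype, 27 of 31 genes were above 0 (51.5% of all genes), with a median of 0.40 against 0.01 over all genes. Of the 31, 2 rose, against 0.55% of all genes called higher. Kdr rose by 0.90 ± 0.18 (edgeR adjusted p = 0.0197), and Cav1 by 0.55 ± 0.13 (adjusted p = 0.0359). At an unadjusted p under 0.05, 11 were higher against 6.86% of all genes, falling to 7 without WT running 1, FLExDUX4 control 3 or FLExDUX4 running 2. Eng differed by 0.80 ± 0.26, Pecam1 by 0.57 ± 0.18 and Cdh5 by 0.49 ± 0.17 (adjusted p = 0.127, 0.118 and 0.163).

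The Kdr call was kept in 9 of the 14 fits that left out a mouse and lost without any one WT control, WT running 4 or FLExDUX4 control 1. Cav1 was kept in 5 of them, those without WT running 1, 2 or 3, FLExDUX4 control 2 or FLExDUX4 running 4. Without FLExDUX4 control 1 and WT running 2 together, Kdr was still called and Cav1 was not (0.51, adjusted p = 0.127). DESeq2 called both.

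Without running, no gene of the set was called between the genotypes. In FLExDUX4 controls, 26 of 31 genes were above the WT controls, with a median of 0.40 against 0.00 over all genes, and 0 were called, as were 0% of all genes (DESeq2 also called 0 of the 31). At an unadjusted p under 0.05, 3 were higher (2.81% of all genes): Ptprb by 0.55 ± 0.20, Gpihbp1 by 0.77 ± 0.33 and Emcn by 0.92 ± 0.41 (adjusted p = 0.969 each). Without FLExDUX4 control 1, Gpihbp1 was at 0.44 and Emcn at 0.37. Every FLExDUX4 control was above every WT control for 6 genes (5.93% of all genes): Kdr, Ptprb, Esam, Sox17, Erg and Gpihbp1. The median was 0.22 without WT control 1, and the count under 0.05 was 5 without FLExDUX4 control 1, FLExDUX4 control 3 or FLExDUX4 running 4.

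After running, the sign was the opposite. Of the 31 genes, 25 were lower in FLExDUX4 runners than in WT runners, with a median of -0.22 and 0 called (0% of all genes, and 0 by DESeq2). Over all genes the median was -0.01, and 48.8% lay above 0. Flt1 alone had an unadjusted p under 0.05, at -0.43 ± 0.17 (adjusted p = 0.999), where 1.57% of all genes were lower; it was at -0.21 without WT running 2. The count was 0 without WT running 2 or FLExDUX4 running 4, and 3 without FLExDUX4 running 2. The median was -0.08 without FLExDUX4 running 4 and -0.12 without WT running 1. Averaged over running, 24 of 31 were higher in FLExDUX4 mice (49.5% of all genes), with a median of 0.13. Of the 31, 0 were called (0% of all genes, and 0 by DESeq2, with 0 at an unadjusted p under 0.05). That median was 0.04 without FLExDUX4 running 2 and 0.21 without FLExDUX4 running 4.

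The test of the difference between the running effects called 0 genes (0% of all genes, and 0 by DESeq2). The running effect was smaller in FLExDUX4 than in WT for 26 of 31, with a median of -0.61 against -0.01 over all genes. At an unadjusted p under 0.05, 6 were lower (2.66% of all genes), and these were Gpihbp1 at -1.23, Ptprb at -0.78, Esam at -1.004, Emcn at -1.31, Flt1 at -0.61 and Tcf15 at -1.52 (adjusted p = 0.954 each). Emcn was at -0.77 without FLExDUX4 control 1 and Flt1 at -0.39 without WT running 2, and when spike-ins set the library sizes 12 genes were under 0.05. Kdr differed by -0.61 ± 0.35 (adjusted p = 0.962), and by -0.29 without WT running 1. A smaller running effect in FLExDUX4 was thus not shown for any single gene. The WT controls enter both the running effect in WT and the genotype difference in controls, so these values are not independent of each other.

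By mouse, the 32 genes together took 348 to 378 CPM of all gene counts, with library totals unscaled, in WT controls (mean 365 ± 15.6 SD, n = 3) and 498 to 662 in WT runners (559 ± 72.4, n = 4). FLExDUX4 controls had 398 to 528 (460 ± 65.1, n = 3) and FLExDUX4 runners 372 to 534 (475 ± 71.2, n = 4). The median log2 CPM of the 31 genes, relative to the WT control mean, was 0.61 to 0.75 in WT runners, 0.14 to 0.49 in FLExDUX4 controls, and 0.44, 0.78, 0.61 and 0.05 in FLExDUX4 runners. The WT groups were apart and the FLExDUX4 groups overlapped, with runner 4 at 372 and the other runners at 485, 534 and 508.

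Some lists of other cell types moved with these sums, and others did not. Red blood cell genes summed to 441 to 955 CPM in WT controls and 1135 to 1840 in WT runners. They summed to 672 to 991 in FLExDUX4 controls and 478 to 1743 in FLExDUX4 runners. In WT, 5 of their 5 tested genes were higher without overlap, against 5.74% of all genes. Slow fibre genes summed to 51.1 to 67.1, 151 to 864, 218 to 550 and 68.7 to 1134 CPM in the same order. Smooth muscle and pericyte genes were listed for the cells around capillaries and larger vessels. They summed to 947 to 1092, 1129 to 1278, 1097 to 1240 and 1096 to 1177 CPM. That list includes Des, also listed as a triceps muscle gene, so its sum is not a measure of these cells alone. Of the 10 tested genes of that list, 1 was called higher in WT, against 0.397% of all genes. It was Rgs5, a pericyte marker named after its value was seen (0.68 ± 0.16, edgeR adjusted p = 0.0433). Lymphatic genes summed to 7.35 to 15.99 CPM in WT controls, 16.5 to 30.9 in WT runners, 20.3 to 29.1 in FLExDUX4 controls and 16.6 to 24.8 in FLExDUX4 runners, so the WT groups were apart. Arterial genes summed to 10.1 to 17.1, 11.4 to 21.4, 6.31 to 9.78 and 10.8 to 21.1 CPM in the same order, with the FLExDUX4 groups apart. Schwann cell genes, of the cells that wrap nerve fibres, summed to 30.9 to 38.2, 45.7 to 69.02, 34.5 to 60.1 and 49.2 to 65.3 CPM. Of 4 tested, 3 were higher in WT runners at an unadjusted p under 0.05, against 6.3% of all genes. Fast fibre genes were lower in every WT runner than in every WT control, at 107051 to 109693, 62497 to 93024, 93032 to 103934 and 63469 to 95115 CPM. The WT groups overlapped in the sums of the fibroblast, macrophage, venous, adipocyte, leukocyte, satellite cell and tendon lists. Fibroblast genes summed to 938 to 1372 CPM in WT controls and 977 to 1221 in WT runners. Macrophage genes summed to 46.3 to 71.5 and 39.1 to 94.2, and venous genes to 39.5 to 58.1 and 39.6 to 56.03. None of these lists had a gene at 0 in every mouse, and their part in the results was not tested.

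**Figure D4:**
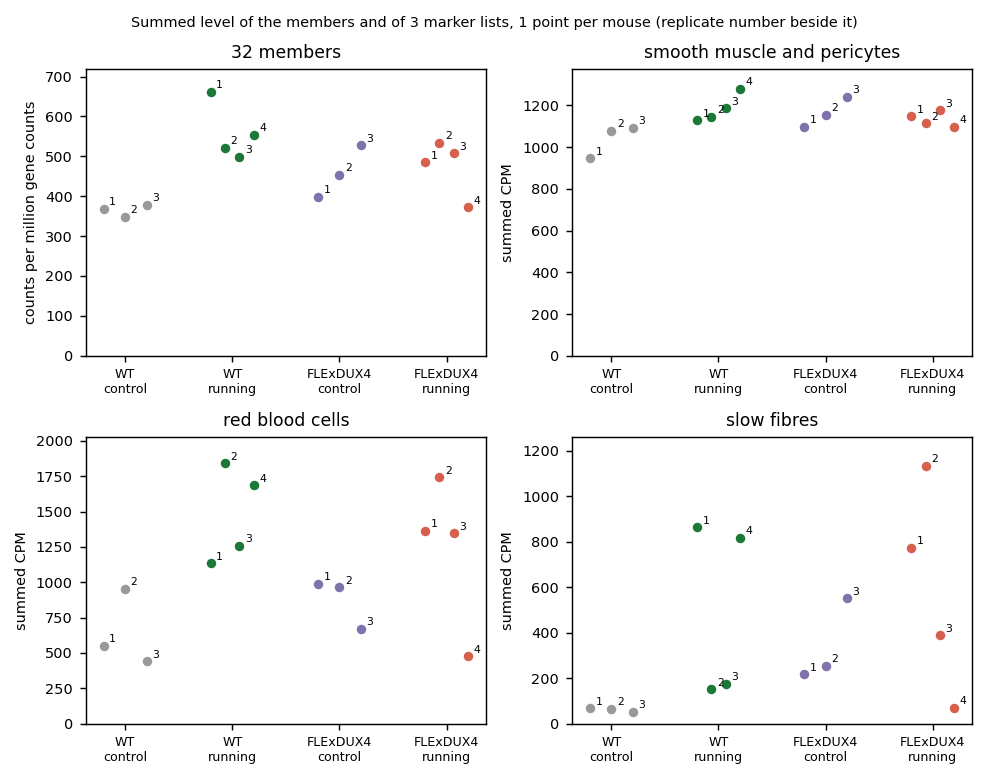
Summed level by mouse, numbered by replicate: CPM of unscaled library totals for the 32 genes, and summed CPM for smooth muscle and pericyte, red blood cell and slow fibre genes. FLExDUX4 runner 4 is the lowest of its group in all 4 panels, at 372, 1096, 478 and 68.7. The smooth muscle and pericyte list includes Des, which is also listed as a triceps muscle gene.

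Pathway genes outside the set were counted from lists. Of 11 tested angiogenic ligands, 10 were above 0 in WT (median 0.51) and 1 was called, against 0.397% of all genes called higher. It was Fgf1, a fibroblast growth factor (2.65 ± 0.47, edgeR adjusted p = 0.0127). After running in FLExDUX4 mice, 9 ligands were above 0 (median 0.30) and 0 were called, as were 0% of all genes. At an unadjusted p under 0.05, 4 of the ligands were higher there, against 3.61% of all genes. Averaged over genotype, Fgf1 was at 1.48 ± 0.31 (adjusted p = 0.0197), while Vegfb was at 0.51 ± 0.14 and Cxcl12 at 0.48 ± 0.15 (adjusted p = 0.066 and 0.0975). For Fgf1 this average joins 2.65 in WT with a smaller value in FLExDUX4, where no ligand exceeded 1.01. Vegfa, the ligand of Kdr, was named with its value known and differed by 0.21 ± 0.42 in WT (adjusted p = 0.931).

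Of 11 Notch genes and co-receptors, 7 were above 0 in WT and 1 was called, against 0.397% of all genes called higher. It was Nrp1, a co-receptor of Kdr (1.04 ± 0.24, edgeR adjusted p = 0.046). After running in FLExDUX4 mice, 8 genes of this list were above 0 (median 0.30) and 0 were called. There, 2 were higher at an unadjusted p under 0.05, against 3.61% of all genes. Averaged over genotype, Nrp1 was at 0.81 ± 0.17 (edgeR adjusted p = 0.0203). Dll4 and Notch4, a Notch ligand and its receptor, were uncalled when averaged over genotype (1.19 ± 0.46 and 1.21 ± 0.63, adjusted p = 0.236 and 0.453). The fits that left out a mouse called from 0 to 197 genes for running in WT. The WT calls of Fgf1, Nrp1 and Rgs5 were thus not kept in all of them. How often each gene outside the set kept its call was not counted.

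Of 9 genes of lipid handling in capillaries, 8 were above 0 in WT (median 1.38), and edgeR called 0. At an unadjusted p under 0.05, 5 of them were higher, against 6.3% of all genes. In FLExDUX4, 8 were above 0 after running (median 0.60) and 0 were called. There, 2 were higher at an unadjusted p under 0.05, against 3.61% of all genes. Averaged over genotype, 9 were above 0 and 1 rose, against 0.55% of all genes called higher. It was Cd36, a fatty acid transporter of endothelium and muscle fibres (1.13 ± 0.23, edgeR adjusted p = 0.0452). Fabp4 and Fabp5, fatty acid binding proteins, were at 0.46 ± 0.12 and 1.54 ± 0.47 (adjusted p = 0.064 and 0.102). Of 21 further endothelial genes, 16 were above 0 in WT with a median of 0.36, and edgeR called 0. At an unadjusted p under 0.05, 3 were higher, against 6.3% of all genes. In FLExDUX4, 14 of these 21 were above 0 after running (median 0.11) and 0 were called. There, 0 were higher at an unadjusted p under 0.05, against 3.61% of all genes, and 2 were lower. The smallest p when averaged over genotype were those of Cd300lg (0.57 ± 0.20), Rgcc (0.36 ± 0.13) and Car4 (0.83 ± 0.40). Their edgeR adjusted p were 0.169, 0.195 and 0.396. Cd36 and Fabp4 are also expressed outside endothelium, in muscle fibres and adipocytes.

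Between mice of the same group, members varied together only in part. Over 14 mice, with group means removed, the 465 pairs of tested genes had a median Pearson r of 0.12 (-0.89 to 0.83), and 65.6% were above 0. Among the 12 genes with at least 25 counts in every mouse, 61 of 66 pairs were above 0 with a median of 0.37. The highest pair was Ptprb with Pecam1 at 0.83, and the lowest was Ecscr with Plvap at -0.89. These values describe the same 14 libraries, which share depth and scaling, and carry no p.

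**Figure D5:**
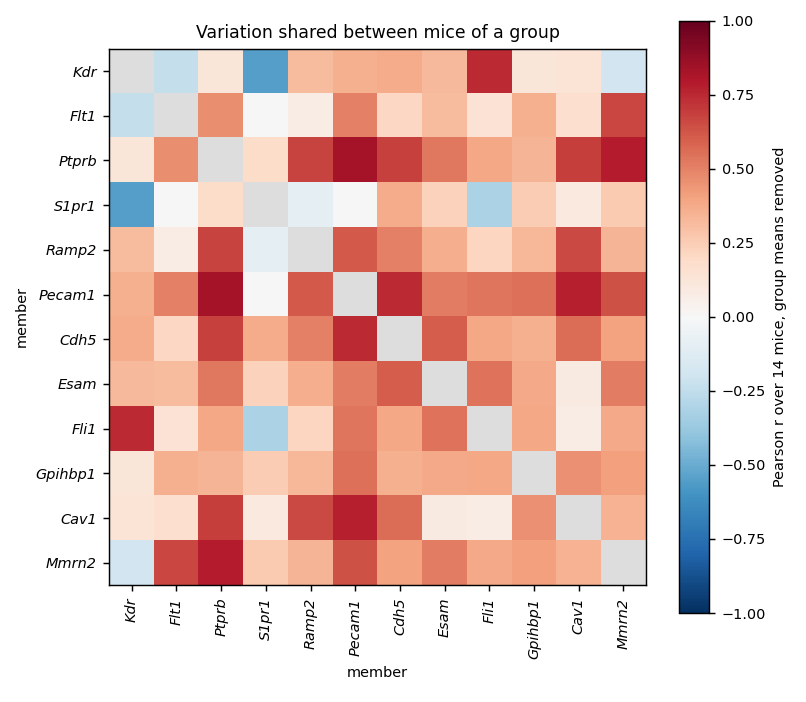
Pearson r over 14 mice, group means removed, for the 12 genes with at least 25 counts in every mouse; red is positive, blue negative, the grey diagonal left empty. The darkest red cell is Ptprb with Pecam1 at 0.83, and the darkest blue one is Kdr with S1pr1 at -0.55.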

How the data were processed

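Triceps RNA of 14 mice was sequenced as QuantSeq 3′ FWD libraries. The authors deposited raw read counts per gene and spike-in for each mouse, without normalization, per the file headers. Per the submitters' processing notes, the tools were featureCounts 1.6.2, STAR 2.5.3a, cutadapt 1.16, FastQC 0.11.7 and DESeq2, with GRCm38 and GRCh38 as builds. The sources used here do not state annotation release, strand setting or handling of multiply aligned reads, so reads of overlapping or antisense genes cannot be told apart.

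The 99 spike-ins (92 ERCC, 7 SIRV) were set aside, leaving 52550 genes, 20938 with a count. Replicates were numbered in the order of the records. No pair looked like a repeat of the same library (lowest chi-square per degree of freedom 5.46). With edgeR 4.0.16 in R 4.3.3, TMM factors (0.911 to 1.11) scaled library sizes and filterByExpr (minimum count 10) kept 11088 genes, 31 of the 32 members. A robust quasi-likelihood fit with 1 mean per group covered all 14 libraries (common biological coefficient of variation 0.288), with 7 contrasts. Genes under 0.05 after Benjamini-Hochberg adjustment across the tested genes are called. Tests are 2-sided, fold changes carry the standard error of the fit, and the fit was tested on simulated data.

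Per-mouse values were given for called members, for the 3 with the smallest p in each role group for running averaged over genotype, and for the untested member; pathway lists name up to 3 genes by the same p. The members and lists were chosen with earlier results of these data known. Alternatives were DESeq2 1.42.0, RLE factors, spike-in library sizes, no low-count filter, no mitochondrial genes or Gm42418, only the 2 groups compared, and mice left out. Promoter windows came from RefSeq on GRCm38.p6.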

Additional observations from a re-analysis of the deposited data

Results flagged for a closer look

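Within groups of 4 mice, 1 mouse can lie far from the rest. Of 68 sets of 4 runners, 3 held a mouse whose gap to its nearest neighbour exceeded Dixon's critical value for 4 samples as a share of the group's range; chance alone gives about 1 in 20. Pecam1, an endothelial adhesion molecule, was at 17.96 CPM in FLExDUX4 runner 4, below the other runners. Tcf15, a transcription factor of capillary endothelium, was at 2.84 CPM in WT runner 3, below the other WT runners. Mmrn2, an endothelial matrix protein, was at 23.97 CPM in WT runner 2, above the other WT runners; that mouse stood apart in earlier results of these data.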

How the results depend on the processing

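No paired analysis was possible because the replicate numbers were given in the order of the records and tie no mouse of one group to a mouse of another. The sample labels name no litter, so litter could not be taken into account. Of the single-gene values under settings other than leaving out a mouse, 440 of 467 kept their direction and their side of the threshold, 22 became called, 1 lost its call and 4 changed sign. When each mouse was left out in turn, 977 of 1022 kept both, 23 lost their call, 9 gained one and 13 changed sign. Most of these values, in both counts, were uncalled in the main fit and had no call to lose. The calls that could be lost were kept in 5 of 14 such fits for Kdr in WT. Averaged over genotype, they were kept in 9 of 14 for Kdr and 5 of 14 for Cav1. The causes were not tested.

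When spike-ins set the library sizes, the members' median was 1.04 for running in WT (11 members and 604 genes called), 0.60 for running averaged over genotype (5 members, 430 genes), 0.71 for genotype in controls (2 genes called) and -0.92 for the interaction (1 gene); the median of all genes moved with them, to 0.37, 0.21, 0.31 and -0.32. Robo4 turned to 0.029 for running in WT. DESeq2 called 5 members and 194 genes for running in WT, 273 genes for running averaged over genotype, 3 for genotype in controls and 1 for genotype averaged over running. Without a low-count filter, 5 members (Cldn5 among them) and 217 genes were called for running in WT, 4 members and 291 genes for the average, 24 genes for running in FLExDUX4, 12 for genotype in controls, 11 for the interaction, 8 for genotype averaged over running and 2 for genotype in runners. With only the 2 groups compared, 2 members were called for running in WT, and 24 genes for genotype in controls and 6 for running in FLExDUX4. Without FLExDUX4 control 1 and WT running 2 together, 28 genes were called for running in WT, and 1 member and 23 genes for the average; for running in FLExDUX4, Emcn turned to 0.17, Gpihbp1 to 0.20 and Sox18 to -0.20.

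Leaving out 1 mouse at a time, running in WT called 0 to 5 members and 0 to 197 genes, the average 0 to 4 members and 17 to 289 genes, running in FLExDUX4 0 to 2 genes, the interaction 0 to 1, and genotype in controls 0 to 3 and averaged over running 0 to 2 genes. The members' median ran from 0.22 to 0.44 for genotype in controls, from 0.03 to 0.23 for running in FLExDUX4 and from 0.04 to 0.21 for genotype averaged over running. For running in FLExDUX4, ranges that cross 0 were those of Ptprb (-0.22 to 0.010), Esam (-0.35 to 0.12), Emcn (-0.60 to 0.17), Sox18 (-0.20 to 0.88), Tcf15 (-0.54 to 0.15), Gpihbp1 (-0.35 to 0.20) and Plvap (-0.31 to 0.21). Depth limits the sparse members, such as Erg with 108 counts and Cldn5 with 124 over all mice.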
